A study of Mus musculus with 12 samples.

Results

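The 10 genes described here are transcriptional targets of WNT/beta-catenin signalling that also act back on the pathway or read it out: Axin2, Lef1, Tcf7, Sp5, Nkd1, Nkd2, Rnf43, Znrf3, Tnfrsf19 and Ccnd1. They are 10 of the 36163 distinct names in the gene name column of the scanner files, and these names yielded 16 of the 55681 non-control probes of the array, and 15 of these 16 were among the 36430 probes that passed the filter on dim probes in the cultures. The genes were measured in neuronal cultures derived from mouse embryonic stem cells (male, 129/Ola background) at day 16 of differentiation and in tissues of E15 embryos (Sv129s6, both sexes). All culture groups received the WNT inhibitor 53AH (2.5 µM) and the BMP inhibitor LDN193189 (0.25 µM) from day 0. CHIR_8-16 was switched at day 8 to CHIR at 3 µM, which was kept until day 16. CHIR is a WNT agonist that blocks GSK3. Summed over its steps, the growth protocol places this switch 1 day earlier. CHIR_11-16 received the agonist from day 11 to day 16 after the inhibitors, at a dose not stated in the labels. No agonist was given to WiBi_0-16, which had both inhibitors throughout, or to WiBi_0-11, which had them up to day 11. The protocol calls WiBi_0-11 the isocortical and CHIR_8-16 the hippocampal culture. Each culture group had 2 arrays, and E15 hippocampus, ventral telencephalon, midbrain and cortex had 1 array each. RNA of 3 experiments was pooled for each sample, so the p-values below rest on the spread between such pools, which may be technical. Where all agonist arrays are compared with all inhibitor-only arrays, the spread and the SDs also hold the difference between the culture groups of a side.

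In the absence of WNT, a destruction complex that holds Axin, APC and GSK3 marks beta-catenin for degradation. When the complex is blocked, beta-catenin enters the nucleus and joins factors of the TCF/LEF family at target genes. Several of those targets dampen the signal again: Axin2 rebuilds the destruction complex, Nkd1 and Nkd2 bind Dishevelled, and Rnf43 and Znrf3 remove Frizzled receptors from the cell surface. In the embryonic forebrain, WNT signals from the cortical hem are known for their role in forming the hippocampus.

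Levels are given as the log2 signal of a probe minus the 75th percentile of its array, so that 0 is the signal of a probe at that percentile, and values of different probes are not compared with each other. The embryonic arrays lay on slide 1, replicate 1 of every culture group on slide 2 and replicate 2 on slide 3. Of the 36430 probes 12221 differed between slides 2 and 3 (limma, adjusted p under 0.05), so every fit between culture groups was run once plainly and once with the slide as a blocking term, called the block below. Slide and replicate number coincide, so differences between slides and between the replicate cultures cannot be told apart. The neuronal markers Tubb3, Dcx and Rbfox3 were well above background on all 12 arrays. So were the progenitor marker Sox2 and the proliferation marker Mki67, so the cultures did not hold neurons alone. Replicate 2 of 3 groups stood apart by the pluripotent cell markers Zfp42, Pou5f1 and Dppa5a, but not by Nanog. Zfp42 had levels of -2.26 in CHIR_8-16, -1.21 in CHIR_11-16 and -0.95 in WiBi_0-11 on slide 3. On the other 5 culture arrays it read -7.87 to -5.09, and 1 of them (WiBi_0-16 replicate 1 on slide 2, -5.09) was also well above background. Nanog read -0.85, -0.54 and -0.81 on the same 3 slide 3 arrays, against -1.19 to -0.30 on the other 5.

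Promoter sequences from RefSeq (GRCm38.p6) were listed for 8 of the 10 genes, with 14 transcription starts, and were searched for the TCF/LEF core written as CTTTGAA and its variants ending differently, namely CTTTGAT together with CTTTGTA and also CTTTGTT, on either strand in the 250 bases before each start. A match was found at 3 starts of 3 genes: at the only start of Sp5, at 1 of 4 starts of Lef1 and at 1 of 2 starts of Tnfrsf19. Among all 32851 listed promoters, 14.8% held at least 1 match and 1.43% held at least 2, as the Sp5 promoter did. The Sp5 matches read AACAAAG (the reverse strand of CTTTGTT) from 222 to 216 and CTTTGAT from 104 to 98 bases before the start. These 3 sequences are shown because the genes are among those whose probes passed the test in the agonist cultures; capitals mark the matches, each is read 5′ to 3′ toward the outermost listed start, and the Lef1 and Tnfrsf19 windows shown hold none.
Sp5 (GRCm38.p6 chr2:70474673-70474922, plus strand): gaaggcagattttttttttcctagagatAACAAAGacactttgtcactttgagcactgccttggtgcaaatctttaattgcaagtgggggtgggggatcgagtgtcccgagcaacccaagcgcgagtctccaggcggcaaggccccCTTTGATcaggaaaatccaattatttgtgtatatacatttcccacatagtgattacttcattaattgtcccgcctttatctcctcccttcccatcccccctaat
Lef1 (GRCm38.p6 chr3:131110047-131110296, plus strand): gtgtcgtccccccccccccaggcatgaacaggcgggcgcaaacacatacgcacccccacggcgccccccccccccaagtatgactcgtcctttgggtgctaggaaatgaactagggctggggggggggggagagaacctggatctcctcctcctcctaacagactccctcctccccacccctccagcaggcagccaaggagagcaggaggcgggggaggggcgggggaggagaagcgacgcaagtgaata
Tnfrsf19 (GRCm38.p6 chr14:61046856-61047105, minus strand): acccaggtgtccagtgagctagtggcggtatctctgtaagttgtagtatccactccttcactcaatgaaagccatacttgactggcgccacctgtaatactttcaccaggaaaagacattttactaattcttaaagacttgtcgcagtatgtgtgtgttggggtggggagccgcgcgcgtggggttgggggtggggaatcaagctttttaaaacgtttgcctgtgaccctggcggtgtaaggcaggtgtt
The Lef1 match (TACAAAG, 147 to 141 bases before an internal start) and the Tnfrsf19 match (ATCAAAG, 202 to 196 bases before the other listed start) lay elsewhere. No match was found before the listed starts of Axin2, Nkd1, Nkd2, Rnf43 or Tcf7. A match is only a run of letters, and no binding was measured.

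The 4 agonist arrays were compared with the 4 inhibitor-only arrays to ask which feedback genes stood higher at day 16 under CHIR. The inhibitors ended at day 8 or 11 in the agonist groups and at day 11 or 16 in the inhibitor-only groups. The agonist and the shorter inhibition therefore cannot be told apart here. Only CHIR_11-16 and WiBi_0-11, compared further below, had the inhibitors up to the same day. Sp5, Lef1, Nkd1 and Tnfrsf19 were higher with the agonist by log2 4.20, 3.01, 1.95 and 2.21, and these 4 probes passed at an adjusted p under 0.05 when slide was a block. Without the block 0 of the 15 probes passed, where 0.00549% of all probes did (2 of 36430, both lower), although 12 of the 15 had an unadjusted p under 0.05, against 5177 of all 36430. With the block 4 of 15 passed, all 4 higher, where 1.17% of all probes were called and 0.656% were called higher. On 9 probes of 8 genes every agonist array lay above every inhibitor-only array, as for 6.28% of all probes. The groups were separated the opposite way for 1 probe, of Nkd2, against 5.2% of all probes. The Tcf7 probe is among the 9 and passed the filter through the agonist groups alone. Of the other 14 probes, 8 of 7 genes were higher without overlap, as were 6.32% of the 33862 probes that passed through groups of both kinds, and 11 had an unadjusted p under 0.05. The median difference of the 15 probes was 1.42 (1.37 without Tcf7), beside 0.0008 for all probes. Leaving out any 1 array with the block in place ended the 4 calls: their adjusted p then ran from 0.070 to 0.133. Fewer cells that express a gene and less RNA of it per cell cannot be told apart in these bulk samples.

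**Figure D1:**
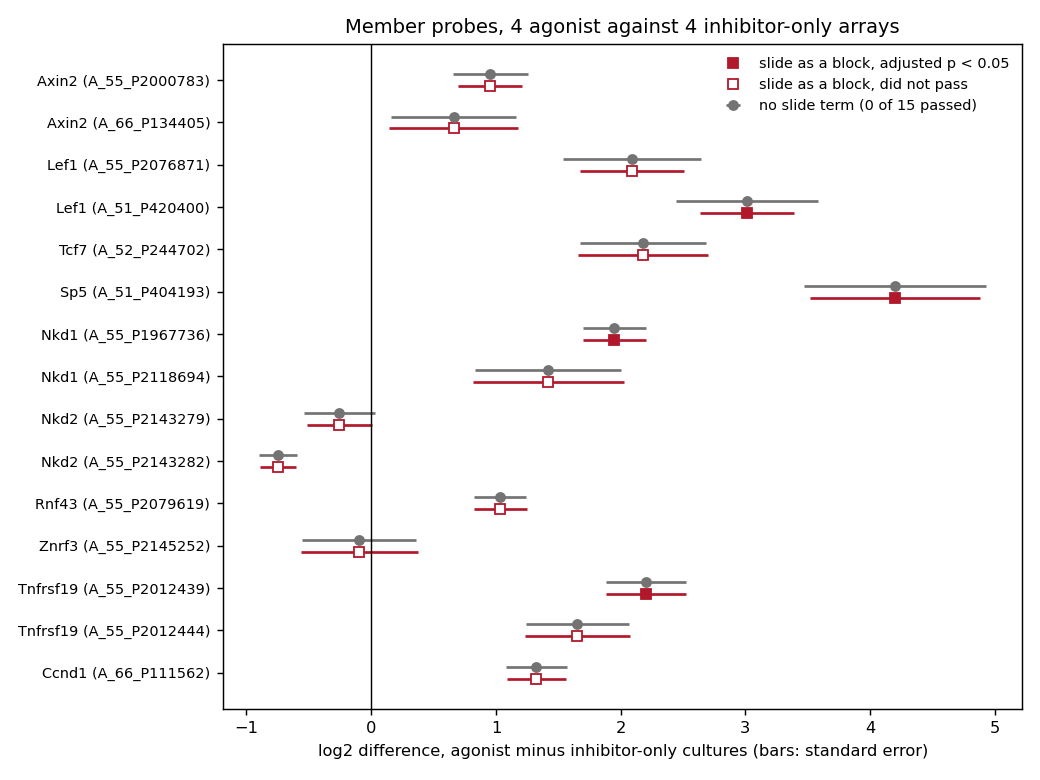
Log2 difference between the 4 agonist and the 4 inhibitor-only arrays for the 15 probes of feedback genes that passed the filter, with standard errors from limma without (circles) and with (squares) slide as a block. The filled squares are the 4 probes that passed with the block: Lef1 (A_51_P420400), Sp5, Nkd1 (A_55_P1967736) and Tnfrsf19 (A_55_P2012439); both Nkd2 probes and Znrf3 lie left of 0.

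Lef1 and Tcf7 are DNA-binding partners of beta-catenin, and both have 2 probes. Lef1 probe A_51_P420400 maps to mm9 chr3:130907851-130926012, a span of 18162 bases, so it crosses an intron; all probe positions here are in mm9. It is printed because it is the Lef1 probe that passed.
Lef1 A_51_P420400, plus strand: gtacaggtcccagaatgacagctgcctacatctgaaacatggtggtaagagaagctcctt
Its levels were 1.66 and 0.07 in CHIR_8-16, 0.14 and -0.99 in CHIR_11-16, -2.37 and -3.68 in WiBi_0-16, and -2.07 and -3.05 in WiBi_0-11. All agonist arrays lay above all inhibitor-only arrays, with averages of 0.22 ± 1.09 and -2.79 ± 0.72 (SD, n = 4 each). The difference was 3.01 (SE 0.57, adjusted p = 0.095 by limma; with the block SE 0.37, adjusted p = 0.037), or 8.07-fold, and it was 3.12 on slide 2 and 2.90 on slide 3.

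The other Lef1 probe, A_55_P2076871 (chr3:130926200-130926259), had levels of 4.22 and 3.37 in CHIR_8-16, 2.79 and 1.80 in CHIR_11-16, 1.88 and 0.28 in WiBi_0-16, and 1.24 and 0.41 in WiBi_0-11. Here the groups overlapped, since CHIR_11-16 replicate 2 lay just below WiBi_0-16 replicate 1, but within each slide they did not. The difference was 2.09 (SE 0.55, limma, adjusted p = 0.146; with the block 0.055). Both Lef1 probes were lower on slide 3 than on slide 2 across the groups, by log2 -1.25 (adjusted p = 0.0049) and -1.07 (adjusted p = 0.0082).

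Tcf7 was dim. Probe A_52_P244702 (chr11:52066114-52066173) had levels of -4.18 and -4.43 in CHIR_8-16 and -3.38 and -4.15 in CHIR_11-16, and it was not well above background on any inhibitor-only array, where it read -6.66 and -7.37 in WiBi_0-16 and -5.93 and -4.89 in WiBi_0-11. The agonist cultures were at least 2.64-fold higher, a bound set by the lowest signal that was well above background on each inhibitor-only array. Since the probe passed the filter only through the groups where it was bright, this is a description, with no test. The second Tcf7 probe, A_55_P2109633, was not well above background on any of the 8 culture arrays and was not tested there.

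Sp5, a zinc-finger transcription factor induced by WNT, showed the widest difference of the 15 probes. Probe A_51_P404193 (chr2:70315688-70315747) had levels of 0.11 and 0.65 in CHIR_8-16, 0.72 and 0.27 in CHIR_11-16, -5.63 and -4.14 in WiBi_0-16, and -3.65 and -1.61 in WiBi_0-11. The 4 agonist arrays lay close together, whereas the 4 inhibitor-only arrays were spread widely, and the groups did not overlap. Agonist arrays averaged 0.44 ± 0.30 and inhibitor-only arrays -3.76 ± 1.66 (SD, n = 4 each). The 18.3-fold difference (log2 4.20, SE 0.73, limma, adjusted p = 0.095) had an adjusted p of 0.047 with the block. This difference was 5.06 on slide 2, which holds none of the 3 arrays that stood apart by Zfp42, and 3.34 on slide 3, which holds all 3; the part of those cells in the Sp5 level was not tested. Dropping WiBi_0-11 replicate 2 gave 4.91, and dropping WiBi_0-16 replicate 1 gave 3.57.

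Axin2, the scaffold of the destruction complex, did not pass. Probe A_55_P2000783 (chr11:108812034-108812093) had levels of -0.59 and 0.71 in CHIR_8-16, -0.37 and -0.54 in CHIR_11-16, -1.34 and -0.84 in WiBi_0-16, and -1.33 and -1.09 in WiBi_0-11. All agonist arrays lay above all inhibitor-only arrays, with a gap of 0.25, and CHIR_8-16 replicate 2 stood apart at the top. The difference was 0.95, or 1.94-fold (SE 0.30, limma, adjusted p = 0.197; with the block 0.090). Probe A_66_P134405 (chr11:108803927-108803986) is shown because its groups overlapped, while those of the first did not.
Axin2 A_66_P134405, plus strand: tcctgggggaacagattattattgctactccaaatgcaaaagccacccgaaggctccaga
Its levels were -2.62 and -2.82 in CHIR_8-16, -3.69 and -4.27 in CHIR_11-16, -3.83 and -4.57 in WiBi_0-16, and -4.74 and -2.90 in WiBi_0-11. The groups overlapped on this probe, which had a difference of 0.66 (SE 0.50, limma, adjusted p = 0.68). The 2 arrays of WiBi_0-11 lay further apart than the difference itself.

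Nkd1 and Nkd2 are paralogous antagonists of the pathway. Nkd1 probe A_55_P1967736 (chr8:91116160-91116219) had levels of 1.82 and 2.35 in CHIR_8-16, 1.51 and 1.32 in CHIR_11-16, -0.45 and -0.43 in WiBi_0-16, and -0.03 and 0.12 in WiBi_0-11. The gap between the lowest agonist and the highest inhibitor-only array was 1.19. Averages were 1.75 ± 0.45 with the agonist and -0.20 ± 0.29 with inhibitors only (SD, n = 4 each), a 3.86-fold difference (log2 1.95, SE 0.25, limma, adjusted p = 0.075; with the block 0.038). It was nearly equal on slide 2 (1.91) and slide 3 (1.99).

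A second Nkd1 probe, A_55_P2118694 (chr8:91118468-91118527), was also higher with the agonist, by 1.42, but its groups overlapped and it did not pass (limma, adjusted p = 0.32; with the block 0.24). Nkd2 probe A_55_P2143282 (chr13:73957581-73957640) had levels of -2.17 and -1.86 in CHIR_8-16, -1.65 and -1.70 in CHIR_11-16, -1.28 and -1.06 in WiBi_0-16, and -0.98 and -1.06 in WiBi_0-11. All agonist arrays lay below all inhibitor-only arrays, by 0.36 or more. The difference of -0.75 (SE 0.15) did not pass (limma, adjusted p = 0.106; with the block 0.054). The other Nkd2 probe, A_55_P2143279 (chr13:73956776-73956835), had agonist levels of 1.26 to 2.43 against inhibitor-only levels of 1.60 to 2.29, with a difference of -0.26 (95% interval -0.91 to 0.40). The Nkd1 and Nkd2 differences were not tested against each other.

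Rnf43 and Znrf3 encode related membrane ubiquitin ligases that clear Frizzled from the cell surface. Rnf43 probe A_55_P2079619 (chr11:87548958-87549017) had levels of -2.44 and -1.75 in CHIR_8-16, -2.32 and -2.71 in CHIR_11-16, -3.34 and -3.45 in WiBi_0-16, and -3.13 and -3.44 in WiBi_0-11. The agonist arrays were all above the inhibitor-only arrays, by 1.03 on average or 2.05-fold (SE 0.21, limma, adjusted p = 0.106; with the block 0.056). Znrf3 showed no such separation. Its probe A_55_P2145252 (chr11:5180918-5180977) had levels of -2.11 and -2.93 in CHIR_8-16, -2.77 and -3.53 in CHIR_11-16, -3.28 and -3.38 in WiBi_0-16, and -2.77 and -1.52 in WiBi_0-11. The difference was -0.10 (SE 0.46, 95% interval -1.14 to 0.95), with 0.59 on slide 2 and -0.78 on slide 3, so an increase up to 1.94-fold lies within the interval.

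Tnfrsf19, a receptor of the TNF family that beta-catenin is known to induce, had higher agonist levels on both probes, of which 1 passed. Probe A_55_P2012439 (chr14:61582873-61582932) had levels of 3.46 and 2.44 in CHIR_8-16, 2.40 and 1.91 in CHIR_11-16, -0.03 and 0.35 in WiBi_0-16, and 0.41 and 0.66 in WiBi_0-11. The groups were 1.25 apart at their nearest arrays. Agonist arrays averaged 2.55 ± 0.65 and inhibitor-only arrays 0.35 ± 0.29 (SD, n = 4 each). The difference was 4.61-fold (log2 2.21, SE 0.32, limma, adjusted p = 0.082; with the block 0.044), with 2.74 on slide 2 and 1.67 on slide 3. On probe A_55_P2012444 (chr14:61589667-61589726) the groups did not overlap either, with agonist levels of -3.39 to -1.40 against inhibitor-only levels of -4.59 to -3.85. Its difference of 1.65 did not pass (limma, adjusted p = 0.135; with the block 0.080).

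Ccnd1, the cyclin D1 that drives cells through G1, had levels of 2.28 and 2.41 in CHIR_8-16, 2.74 and 2.34 in CHIR_11-16, 0.51 and 1.13 in WiBi_0-16, and 1.20 and 1.66 in WiBi_0-11 on probe A_66_P111562 (chr7:152116202-152116261). All agonist arrays were above all inhibitor-only arrays, by 2.50-fold on average (log2 1.32, SE 0.24), and it did not pass in either fit (limma, adjusted p = 0.095; with the block 0.051). Among proliferation markers 11 of 11 listed genes had a positive difference, with a median of 0.52, and 0 passed without the block (limma; 4 at an unadjusted p under 0.05). Ccnb2, which promotes mitosis, was the 1 of 11 that passed with the block (log2 0.76, adjusted p = 0.050 with the block and 0.095 without). Aurkb, Ccnb1 and Top2a differed by 0.87, 0.64 and 0.56 (adjusted p = 0.82, 0.25 and 0.32), and Aurkb was well above background on 3 of 4 agonist and 2 of 4 inhibitor-only arrays. The summed signal of the 11 genes, relative to the 75th percentile, ran from 65.2 to 91.6 in agonist arrays and from 44.5 to 70.6 in inhibitor-only arrays, so the sums overlapped. The part of cell division in the Ccnd1 level was not tested.

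**Figure D2:**
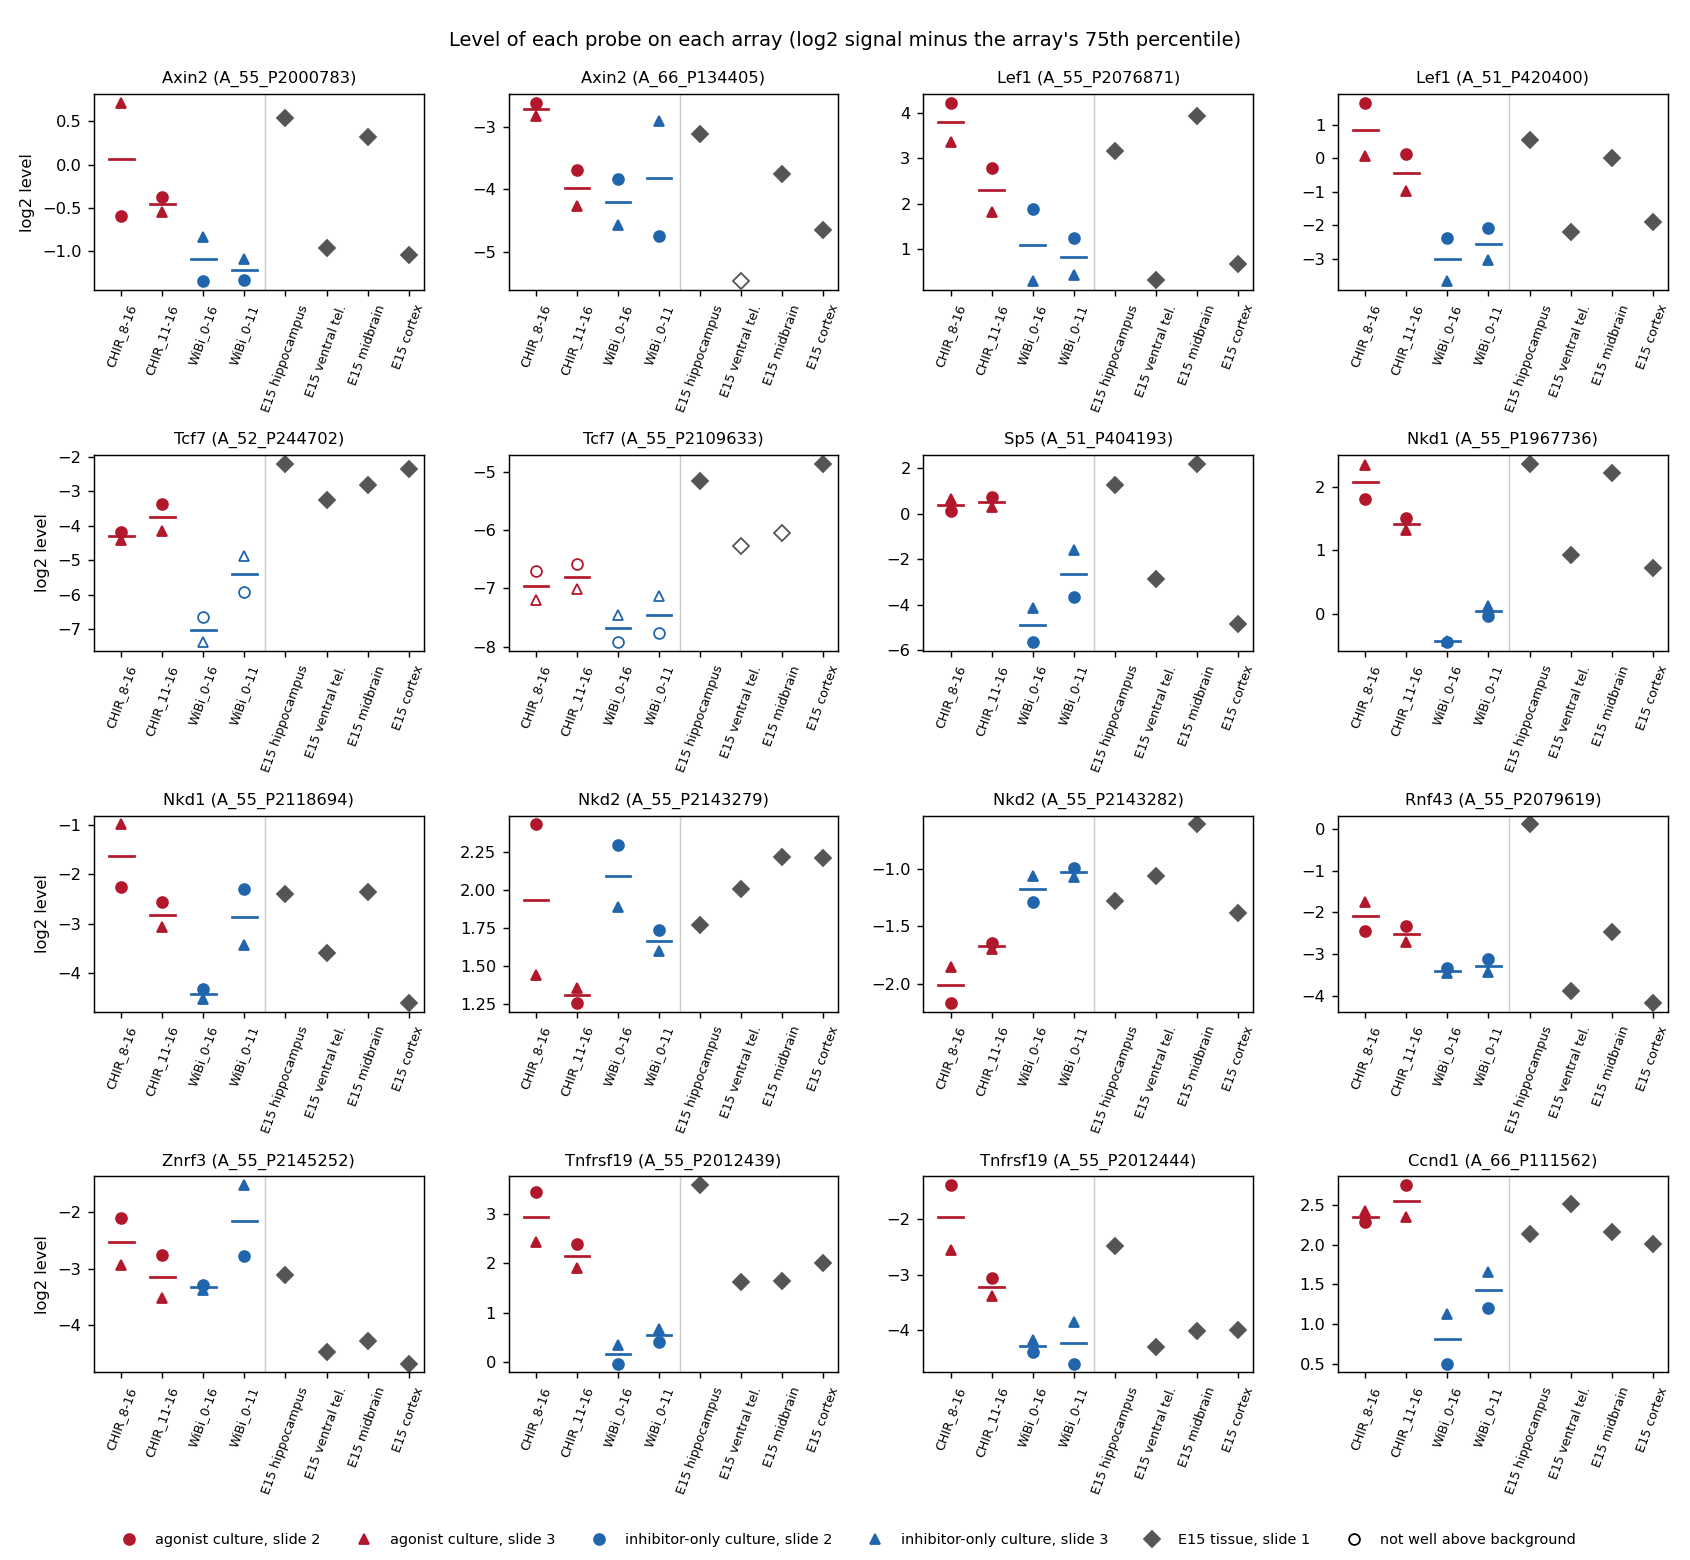
Level of each of the 16 probes (log2 signal minus the 75th percentile of the array) in the 4 culture groups and 4 E15 tissues; marker shape gives the slide, horizontal bars are group means over 2 arrays, and open symbols were not well above background. The 4 agonist points of Sp5 lie between 0.11 and 0.72, above the inhibitor-only points between -5.63 and -1.61, while those of Znrf3 overlap; axes differ between panels.

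CHIR_8-16 was compared with WiBi_0-11 to set the hippocampal against the isocortical protocol. The inhibitors ended at day 8 in CHIR_8-16 and at day 11 in WiBi_0-11, so agonist and inhibitor exposure cannot be told apart. Lef1 and Nkd1 were higher in CHIR_8-16 and passed with the block. Lef1 rose by 3.42 on probe A_51_P420400 (10.73-fold, SE 0.19, limma with the block, adjusted p = 0.020; 0.32 without it) and by 2.97 on A_55_P2076871 (7.82-fold, SE 0.23, adjusted p = 0.029; 0.32 without the block). Nkd1 rose by 2.04 on A_55_P1967736 (4.12-fold, SE 0.20, adjusted p = 0.043; 0.17 without the block). So 3 of 15 probes passed with the block, where 0.307% of all probes did and 0.104% did so higher. Without it 0 of 36430 probes passed by limma, and 3243 of them, 10 of the 15 among them, had an unadjusted p under 0.05. On 12 of the 15 probes both CHIR_8-16 arrays lay above both WiBi_0-11 arrays and on 1 probe (Nkd2, A_55_P2143282) below them, against 18% and 17% of all probes; without Tcf7 it was 11 of 14 and 1 of 14. Markers of other cells were also called lower in this comparison with the block: Olig1 (-5.09, adjusted p = 0.037), Olig2 (-3.32, adjusted p = 0.041) and Gpr17 (adjusted p = 0.046, not well above background in CHIR_8-16) of 6 oligodendrocyte lineage genes, Col3a1 (-2.81, adjusted p = 0.046) of 7 mesenchyme genes and Gad1 (-2.69, adjusted p = 0.049) of 6 ventral telencephalon genes, all named after their values were seen. The summed signals in CHIR_8-16 against WiBi_0-11 were 0.53 and 1.20 against 8.47 and 8.37 for the oligodendrocyte lineage, 5.12 and 2.05 against 12.6 and 12.9 for mesenchyme, and 5.15 and 1.92 against 16.1 and 28.9 for ventral telencephalon. Their part in the levels of Lef1 and Nkd1 was not tested. Of the 3 calls with the block among the feedback genes, 1 remained (Lef1, A_51_P420400, adjusted p = 0.045) without CHIR_8-16 replicate 1, and 0 remained without any other of these 4 arrays. The difference was 3.01 for Sp5 (1.99 on dropping WiBi_0-11 replicate 1 and 4.03 on dropping its replicate 2; adjusted p with the block 0.106) and 2.41 for Tnfrsf19 (A_55_P2012439, adjusted p with the block 0.076), neither of which passed.

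CHIR_11-16, with the later agonist, was set against the same 2 WiBi_0-11 arrays, and both groups had the inhibitors up to day 11. By limma 0 of 15 probes passed without or with the block, where 0% and 0.00823% of all probes did (1569 and 4276 of 36430 had an unadjusted p under 0.05). On 10 of the 15 the CHIR_11-16 arrays were both higher and on 2 both lower, against 18.4% and 15.9% of all probes; without Tcf7 it was 9 and 2 of 14, and 7 of these had an unadjusted p under 0.05 without the block and 8 with it. The log2 differences were 3.13 for Sp5 (8.75-fold), 2.14 for Lef1 (A_51_P420400), 1.37 for Nkd1 (A_55_P1967736), 1.62 for Tnfrsf19 (A_55_P2012439) and 1.11 for Ccnd1. Dropping WiBi_0-11 replicate 1 gave 2.11 for Sp5 and dropping its replicate 2 gave 4.15. Dropping CHIR_11-16 replicate 1 gave 1.57 for Lef1 (A_51_P420400) and dropping its replicate 2 gave 2.70.

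The effect of an earlier start of the agonist was examined by comparing CHIR_8-16 with CHIR_11-16, where 0 of 36430 probes passed without or with the block (limma; 1329 and 4090 had an unadjusted p under 0.05). The dose of the second group is unknown, and the inhibitors ended at day 8 in CHIR_8-16 and at day 11 in CHIR_11-16. The start of the agonist, the end of the inhibitors and the dose therefore cannot be told apart. Lef1 was the member with the widest difference: 1.496 on A_55_P2076871 (1.43 on slide 2 and 1.56 on slide 3; adjusted p with the block 0.181) and 1.29 on A_51_P420400 (1.52 and 1.05; 0.179). Tnfrsf19 differed by 1.25 on A_55_P2012444 and 0.79 on A_55_P2012439, and Nkd1 by 0.68 on A_55_P1967736. Both CHIR_8-16 arrays were higher on 7 of 15 probes and lower on 2, one of them Tcf7, against 11.4% and 14.8% of all probes. Sp5 differed by -0.12 (95% interval -2.03 to 1.80) and Ccnd1 by -0.20 (-0.93 to 0.54), intervals too wide to show that the timings gave like levels.

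A longer exposure to the inhibitors was examined by comparing WiBi_0-16 with the WiBi_0-11 arrays that the agonist comparisons also use. By limma 0 of 15 probes passed without or with the block, where 0% and 0.00823% of all probes did (1002 and 4014 had an unadjusted p under 0.05), and 2 of the 14 probes other than Tcf7 had an unadjusted p under 0.05 in either fit. Sp5 was at -5.63 and -4.14 in WiBi_0-16 against -3.65 and -1.61 in WiBi_0-11, a difference of -2.25 (-1.98 on slide 2 and -2.53 on slide 3; adjusted p with the block 0.39). Dropping WiBi_0-11 replicate 1 gave -3.27, and dropping its replicate 2 gave -1.24. Nkd1 differed by -1.55 on A_55_P2118694 and by -0.49 on A_55_P1967736, Znrf3 by -1.19 and Ccnd1 by -0.61. Both WiBi_0-16 arrays were lower on 7 of 15 probes and higher on 1, against 14.7% and 13.9% of all probes. Tcf7 (A_52_P244702) is among the 7, although neither group had it well above background, so it has no fold. The proliferation markers had a negative difference in 11 of 11 genes, with a median of -0.32, and their summed signal was 44.5 and 66.9 in WiBi_0-16 against 60.5 and 70.6 in WiBi_0-11.

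**Figure D3:**
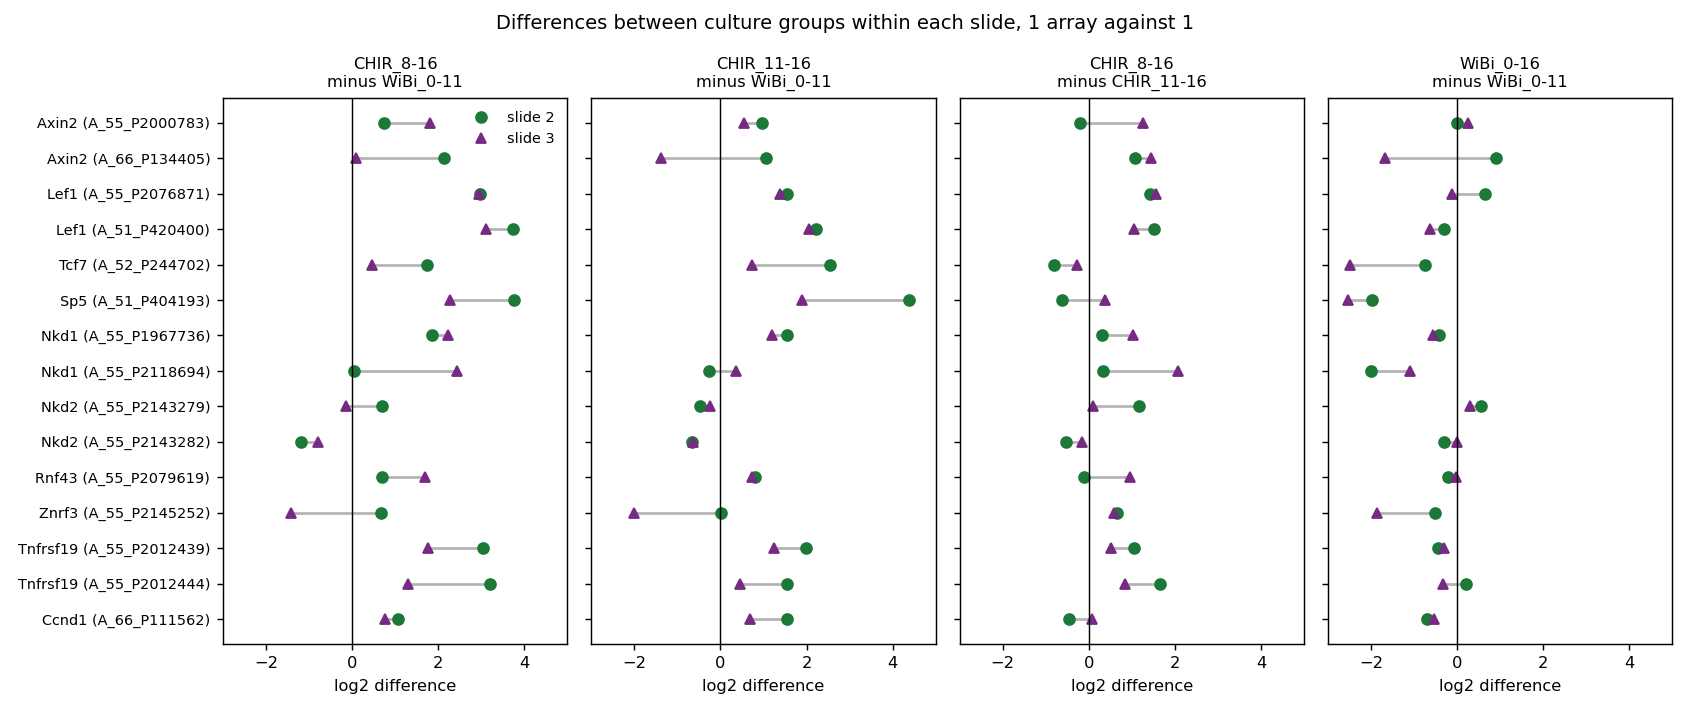
Log2 differences between culture groups within slide 2 (circles) and slide 3 (triangles), 1 array against 1, for the 15 probes. Lef1 lies right of 0 on both slides in the first 3 panels, and Sp5 lies right of 0 in both comparisons of an agonist group with WiBi_0-11 and left of 0 in WiBi_0-16 minus WiBi_0-11.

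In the E15 tissues, which have no replicates and no test, 11 of the 16 probes were at least 2-fold higher in hippocampus than in cortex and 0 were at least 2-fold lower, where 6.35% and 6.16% of all probes were. Sp5 had a level of 1.26 in hippocampus against -4.82 in cortex, a 67.7-fold difference (21.5-fold with normexp and quantile normalization). Rnf43 had 0.11 in hippocampus against -4.17 in cortex (19.4-fold; 8.02-fold with normexp), beside its 2.28-fold difference between CHIR_8-16 and WiBi_0-11. Lef1 was 5.63-fold and 5.51-fold higher in hippocampus on its 2 probes, Nkd1 3.16-fold and 4.59-fold, Axin2 2.98-fold and 2.90-fold, and Tnfrsf19 2.97-fold and 2.83-fold. Znrf3 read -3.11 in hippocampus against -4.68 in cortex (2.97-fold). With normexp, Axin2 A_66_P134405 (1.58-fold), Znrf3 (1.62-fold) and Tnfrsf19 A_55_P2012444 (1.65-fold) were within 2-fold, and Nkd1 A_55_P2118694 was 2.07-fold higher. The 5 probes within 2-fold in the first place were those of Tcf7, Nkd2 and Ccnd1.

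Midbrain had 7 of 16 probes at least 2-fold above cortex and 1 at least 2-fold below it, where 14% and 8.25% of all probes were. Sp5 read 2.19 in midbrain against -4.82 in cortex (129-fold; 42.5-fold with normexp), and Lef1 was 9.71-fold and 3.83-fold higher on its probes. Nkd1 was 2.84-fold and 4.74-fold higher, Rnf43 3.27-fold, and Axin2 2.57-fold on A_55_P2000783 and 1.87-fold on A_66_P134405. With normexp the second Nkd1 value was 2.19-fold and that of Rnf43 1.79-fold. Tnfrsf19 (A_55_P2012439) had 1.64 in midbrain and 3.59 in hippocampus against 2.01 in cortex. Rnf43 and Znrf3 also read lower in midbrain (-2.46 and -4.29) than in hippocampus (0.11 and -3.11). Other probes, such as that of Sp5 (2.19 against 1.26), read higher in midbrain than in hippocampus. The probe counted as lower in midbrain than in cortex was Tcf7 A_55_P2109633. It was not well above background in midbrain and was at least 2.29-fold lower there. Ventral telencephalon had 2 of 16 probes at least 2-fold above cortex, Sp5 (3.93-fold; 1.99-fold with normexp) and Nkd1 A_55_P2118694 (2.01-fold), where 7.42% of all probes were. The 1 probe counted as lower there (8.05% of all probes), Tcf7 A_55_P2109633, was not well above background and is bounded only at 1.18-fold. Relative to cortex the median of all probes was shifted by -0.11 in hippocampus, -0.18 in ventral telencephalon and -0.16 in midbrain.

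Markers of other cells moved with these tissues. The summed signal of 7 mesenchyme and meninges genes was 19.2 in hippocampus, 2.36 in ventral telencephalon and 46.7 in midbrain, against 3.78 in cortex, with 0, 2, 0 and 1 of the 7 not well above background. The 7 neural progenitor genes summed to 249.998 in hippocampus, 178 in ventral telencephalon and 201 in midbrain, against 189 in cortex. Endothelial genes (6 listed) summed to 16.3 to 19.4 over the 4 tissues. The part of these cells in the levels of Lef1, Axin2 and the other genes was not tested. In the cultures the endothelial list summed to 4.05 to 8.99 in agonist arrays against 4.64 to 8.15 in inhibitor-only arrays, and the microglial list of 5 genes to 26.2 to 52.6 against 22.9 to 47.0. Of these 11 genes Pecam1, Kdr, Esam, Csf1r and Itgam were well above background on 8 of 8 culture arrays, Aif1 on 5, Cldn5 on 4, Cdh5 on 1, and Tek, Cx3cr1 and Tyrobp on 0. In the cultures each sum came mostly from 1 probe. Itgam had levels of 4.41 to 5.68 there, against 4.69 to 5.59 in the E15 tissues. Kdr had 1.88 to 3.11 in the cultures, against 2.56 to 3.18 in the E15 tissues.

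**Figure D4:**
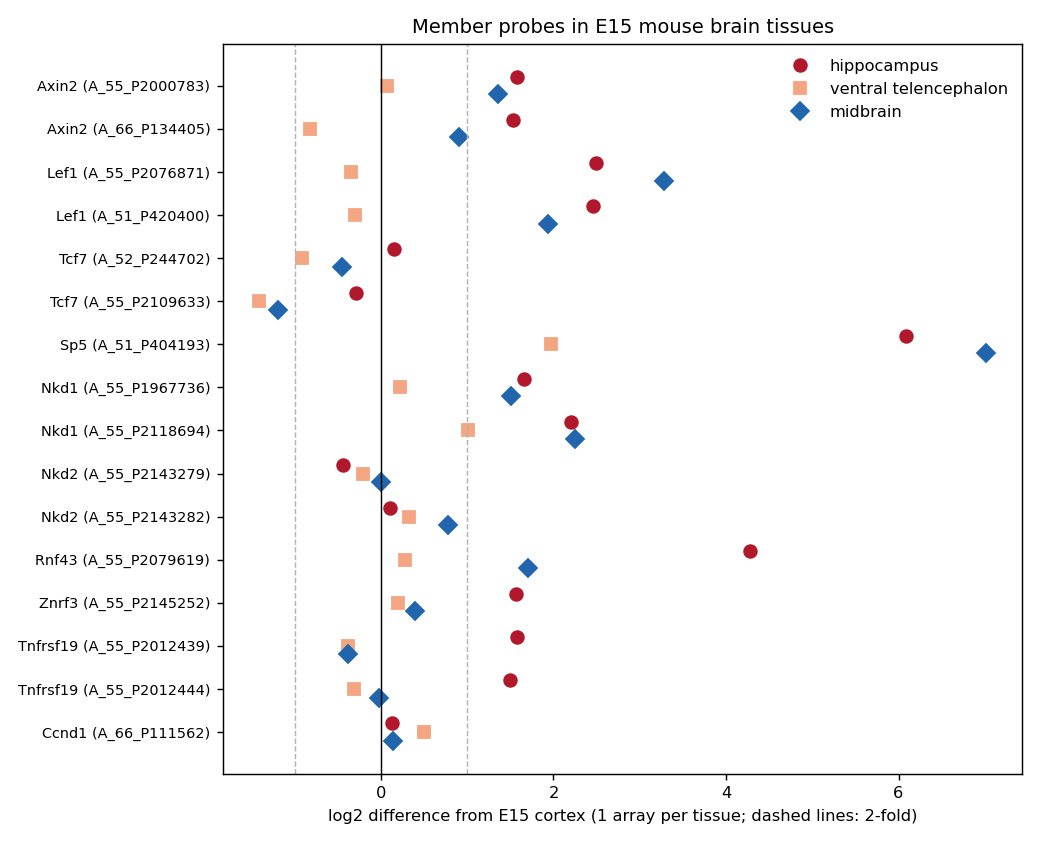
Log2 difference of E15 hippocampus, ventral telencephalon and midbrain from E15 cortex for the 16 probes, 1 array per tissue, with dashed lines at 2-fold. Sp5 lies at 6.08 in hippocampus and 7.02 in midbrain, Rnf43 at 4.28 in hippocampus, and the Nkd2 and Ccnd1 points lie within 2-fold.

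Further genes of the pathway were counted in the same comparison, of the agonist with the inhibitor-only arrays. Of 22 other reported WNT/beta-catenin targets 18 passed the filter, and 0 were called without or with the block (limma; 1 and 2 had an unadjusted p under 0.05), 11 with a positive and 7 with a negative difference and a median of 0.21. Fst, which encodes the activin antagonist follistatin, had levels of -2.07 to -1.10 in agonist arrays against -4.49 to -2.52 in inhibitor-only arrays (log2 2.16, adjusted p = 0.111; with the block 0.063). Dkk1, a secreted WNT antagonist, was well above background on 2 of 4 agonist and 1 of 4 inhibitor-only arrays (log2 1.28, adjusted p = 0.78). Apcdd1, which encodes a membrane inhibitor of WNT, and Ascl2 both differed by 0.77 (adjusted p = 0.79 and 0.61). Of the 12 nuclear partners of beta-catenin 0 were called without or with the block (1 and 3 at an unadjusted p under 0.05), 4 were positive and 8 negative, and the median was -0.07. The co-repressor gene Tle2 differed by -0.83 (adjusted p = 0.36) and Tcf7l2, a paralogue of Lef1 and Tcf7, by 0.31 (adjusted p = 0.70). Bcl9l differed by -0.39 (adjusted p = 0.35) and Tle1 by 0.27 (adjusted p = 0.42).

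Among membrane and cytoplasmic partners of the feedback genes 14 of 15 passed the filter, 0 were called without or with the block (0 and 1 at an unadjusted p under 0.05), 7 were positive and 7 negative, and the median was 0.02. The R-spondin genes Rspo3, Rspo1 and Rspo2, whose products counteract Rnf43 and Znrf3, differed by 0.79, 0.62 and -0.34 (adjusted p = 0.62, 0.66 and 0.93). Dvl2, a Dishevelled gene, differed by 0.29 (adjusted p = 0.46). Of the G1 cyclins, kinases and inhibitors 9 of 10 passed the filter and 0 were called (4 without and 5 with the block at an unadjusted p under 0.05), while 8 were positive and 1 negative, with a median of 0.46. Ccnd2, the paralogue of Ccnd1, differed by 0.63 (SE 0.19, limma, adjusted p = 0.177; with the block 0.085) and Ccne1 by 0.66 (adjusted p = 0.23; with the block 0.144). The cyclin-dependent kinase inhibitor genes Cdkn1c and Cdkn1a differed by 0.66 and 0.52 (adjusted p = 0.49 and 0.20).

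Markers of other cells were read in the same comparison. All 6 oligodendrocyte lineage genes had a negative difference, with a median of -2.40, and their summed signal was 0.53 to 2.97 in agonist arrays against 4.63 to 11.0 in inhibitor-only arrays. With the block Olig1 (-3.85, adjusted p = 0.048) and Gpr17 (-3.44, adjusted p = 0.037) passed; both were named after their values were seen. Neuronal markers summed to 246 to 283 in agonist arrays against 286 to 302 in inhibitor-only arrays, 5 of the 6 measured with a negative difference. The sums of progenitor markers overlapped, at 188 to 345 with the agonist against 193 to 353 with inhibitors only. Of the 7 progenitor genes, however, 6 had a positive and 1 a negative difference, and 3 had an unadjusted p under 0.05 (limma without the block). Fabp7, the brightest of the 7, had levels of 6.37 to 7.82 in agonist arrays against 7.04 to 7.94 in inhibitor-only arrays. Ventral telencephalon markers summed to 1.92 and 5.15 in CHIR_8-16 and 18.9 and 30.7 in CHIR_11-16, against 14.3 to 28.9 in the inhibitor-only arrays. Mesenchyme and meninges genes summed to 2.05 to 7.21 in agonist arrays against 5.33 to 12.9 in inhibitor-only arrays. In the lists of neurons, progenitors, mesenchyme, endothelium, microglia, pluripotent cells, midbrain, pallium and ventral telencephalon 0 genes were called without or with the block (limma), with medians of -0.16, 0.33, -0.31, 0.24, -0.19, 0.09, 0.10, 0.12 and -1.41, and 6 of them in all had an unadjusted p under 0.05 without the block. The part of these cells in the levels of the feedback genes was not tested.

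The genes whose pattern over the 8 culture arrays was most like that of 3 members, after each slide's mean was subtracted, were found among 13296 genes by Pearson's r, as a description. Nearest to Axin2 (A_55_P2000783) were Pou4f1 (r = 0.985), Drp2 (0.981) and Chn2 (0.981). Nearest to Lef1 (A_55_P2076871) were Plekhh3 (0.991), Hrk (0.990) and Ppp1r8 (0.988), and to Sp5 Ss18 (0.996), Smo (0.994) and Ccnb2 (0.993). The 8 arrays share slides and treatments, so genes that differ between the same groups score high together.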

How the data were processed

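Per the labels, Cy3-labelled RNA was hybridised to single-colour Agilent mouse arrays. Per the file headers, spot intensity was extracted and background-corrected with Feature Extraction 10.7.3.1; the submitters' processing notes name Agilent Feature Extraction 9.1 and limma. The deposited series table holds log2 values that the authors normalized across arrays, and it served as an alternative.

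Values were log2 of the processed signal, scaled by subtracting each array's 75th percentile, and were averaged over unmarked spots of a probe. Probes passed when well above background on both arrays of a culture group and unmarked on all 8 culture arrays. Each probe was tested by itself in limma 3.58.1 (R 4.3.3), with Benjamini-Hochberg adjustment over 36430 probes; the agonist comparison had 1 mean for each side. The script was tested on simulated data. Deviations from group means correlated at 0.57 to 0.653 between arrays of one slide, for each of the 6 pairs of groups, so equal replicate numbers were treated as paired by slide. Gene names are from the embryonic arrays' files, joined by probe; probe positions are mm9. Members and the 15 gene lists were chosen with earlier results of these data known. Named genes were all members, up to 4 genes of each other pathway list (called ones first, then the largest differences) and the 3 nearest in pattern to 3 members.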

Additional observations from a re-analysis of the deposited data

Results flagged for a closer look

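Within the 4 agonist arrays, Axin2 (A_55_P2000783) in CHIR_8-16 replicate 2 stood far from the other 3, at a level of 0.7096. The gap to the next array was 0.835 of the range of the 4 arrays. Nkd2 (A_55_P2143279) in CHIR_8-16 replicate 1 stood apart in the same way, at a level of 2.4277, with a gap of 0.842 of the range. Sets of 4 arrays were examined for 15 probes on each side, 30 in all, and chance alone marks about 1 in 20 such sets.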

How the results depend on the processing

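Under the alternatives that keep all arrays, the 635 member values of the 5 culture comparisons held their direction. Many of them could not have turned. The block, the trended prior, dropping the dim filter, the brightest probe per gene and fitting only the groups compared leave a log2 difference unchanged. Only median scaling, quantile normalization, normexp and the deposited table could turn a value. Of the 635 values, 13 passed the threshold only under an alternative: 7 with slide as a block, 5 with a trended prior and 1 with normexp and quantile normalization. Normexp was applied to the median signal, since the culture files carry no mean. Agonist against inhibitor-only, 0 member probes were called without and 4 with the block, 5 with the trended prior (Ccnd1 also) and 1 with normexp (Nkd1); over all probes the counts were 2, 425, 503 and 19, 1 in the deposited table, and 0 with quantile normalization, without the dim filter, and without any 1 array. For CHIR_8-16 against WiBi_0-11, 0 and 3 member probes were called without and with the block. Over all probes 0 became 112 with the block, 5 with median scaling, 9 with quantile normalization, 2 with normexp, 3 with a trended prior and 3 with the brightest probe per gene. In other comparisons of 2 groups the block and quantile normalization called at most 3 and median scaling 1. Leave-one-out with the block, added after seeing the data, called 0 to 1 of all probes and 0 members for the agonist, 0 to 51 probes and 0 to 1 members for CHIR_8-16 against WiBi_0-11, and 0 to 1 probes for WiBi_0-16 against WiBi_0-11; the lone array was assumed to vary like the other groups. With the brightest probe per gene 0 members were lower without overlap. In E15 tissue, normexp gave 8 member probes higher in hippocampus, 0 higher and 0 lower in ventral telencephalon and 0 lower in midbrain; the deposited table gave 1 higher and 0 lower in ventral telencephalon and 0 lower in midbrain. Some E15 values also changed direction. In ventral telencephalon against cortex, Axin2 (A_55_P2000783) turned from 0.07 to -0.02 and Nkd2 (A_55_P2143279) from -0.21 to 0.02 with normexp. Both also turned in the deposited table. In midbrain against cortex, Nkd2 (A_55_P2143279) turned from 0.006 to -0.16 and Ccnd1 from 0.15 to -0.02 with median scaling. The causes were not tested. Leaving out 1 array turned 22 of 360 member values, none called; the ranges are log2 differences. Agonist against inhibitor-only: Znrf3 (A_55_P2145252) -0.34 to 0.31. CHIR_8-16 against WiBi_0-11: Nkd2 (A_55_P2143279) -0.22 to 0.76 and Znrf3 (A_55_P2145252) -1.0019 to 0.25. CHIR_11-16 against WiBi_0-11: Nkd1 (A_55_P2118694) -0.52 to 0.60 and Axin2 (A_66_P134405) -1.08 to 0.76. CHIR_8-16 against CHIR_11-16: Sp5 (A_51_P404193) -0.39 to 0.15, Axin2 (A_55_P2000783) -0.13 to 1.17 and Ccnd1 (A_66_P111562) -0.40 to 0.0028. WiBi_0-16 against WiBi_0-11: Lef1 (A_51_P420400) -1.12 to 0.19, Axin2 (A_55_P2000783) -0.13 to 0.38, Tnfrsf19 (A_55_P2012444) -0.43 to 0.31, Lef1 (A_55_P2076871) -0.55 to 1.0550, Rnf43 (A_55_P2079619) -0.27 to 0.0399 and Axin2 (A_66_P134405) -1.30 to 0.54. Signal near background limits Tcf7, and 2 arrays per group limit every comparison.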
